A study of Caenorhabditis elegans with 4 samples.

Results

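The centre of chromosome V of Caenorhabditis elegans holds 621 of the 6799 binding sites of NHR-11 in the authors' series-level list. A site was taken as a member when its midpoint lay between 5.897 and 16.550 Mb of V in build WS220, a window of 10.653 Mb defined by coordinates. The window was chosen with earlier results of these data known. The same window holds 254 of the 2612 sites in the list of ChIP replicate 1 and 294 of the 2834 sites in the list of ChIP replicate 2. The parts of V on either side, called its arms here, hold 351 sites of the series-level list, and autosomes I to IV hold 4795.

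The study is a ChIP-seq experiment, in which DNA bound to a protein is pulled down with an antibody and sequenced. It has 2 ChIP samples and 2 input samples of total chromatin DNA, each numbered 1 and 2, from strain OP305 at larval stage L4. All 4 samples come from hermaphrodites grown at 20 °C that carry the mutation unc119(ed3) and the transgene wgIs305, so the inputs carry both too. The labels give formaldehyde at 2% for all 4. The transgene was introduced by bombardment, holds an unc119 copy beside the fusion nhr-11::TY1 EGFP FLAG, and per the labels follows the expression of nhr-11 itself. An anti-GFP antibody pulled down the fusion from extracts of whole worms, so a site is a sum over all tissues. No list of the inputs or of worms without the tag was used here, and the labels do not say whether the numbered samples are separate cultures, so the spread between them may be technical. The files hold positions and 1 significance value per site and no reads, so depth is unknown and intervals cover counting error only.

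NHR-11 is a nuclear hormone receptor, a family of transcription factors that contact DNA through a zinc-finger domain and can carry a ligand-binding domain. The family is much larger in nematodes than in vertebrates. In C. elegans autosomes the centre recombines little and is dense in conserved genes, while the arms recombine more and are richer in repeats and in chromatin marked by H3K9 methylation. The arms of V are known for large nematode gene families such as chemoreceptors. Genes at the sites were not analysed here, because the gene table at hand is in another build than the sites.

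NHR-11 sites were denser in the centre of V than on its arms, a contrast that is not particular to V, as given below. The series-level list had 58.3 sites per Mb in the centre (exact Poisson 95% interval 53.8 to 63.1), against 34.3 on the arms (30.8 to 38.0). Replicate 1 had 23.8 sites per Mb in the centre and 12.2 on the arms, and replicate 2 had 27.6 in the centre and 14.5 on the arms. The ratio of centre to arms was 1.70 in the series-level list (95% interval 1.49 to 1.95), 1.95 in replicate 1 (1.57 to 2.44) and 1.90 in replicate 2 (1.55 to 2.33). In series-level sites found in both replicates, meaning that they overlap a site of each replicate list by at least 1 bp, it was 2.05 (1.59 to 2.67). All 4 ratios passed an exact conditional binomial test, two-sided, with Benjamini-Hochberg adjusted p of 3.39e-15, 7.23e-10, 2.11e-10 and 1.17e-08 in that order. These tests treat sites as independent units. A quasi-Poisson model on 100-kb bins, which allows more spread between bins than independent sites would give, kept the series-level call with an adjusted p of 7.32e-07.

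The arms were not alike. The left arm had 40.0 sites per Mb in the series-level list and the right arm 26.4, with 15.3 and 8.05 in replicate 1 and 17.5 and 10.6 in replicate 2. The centre stood above the interval of each arm in all 3 lists. The bodies of the sites covered 2.84% of the centre in the series-level list, against 1.54% of the arms. In replicate 1 they covered 1.24% of the centre and 0.613% of the arms, and in replicate 2 they covered 1.38% of the centre and 0.766% of the arms.

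Against the other autosomes taken whole, the centre of V was sparser than I and IV and close to II and III in the series-level list. Autosome I had 90.9 sites per Mb there, II had 63.0, III had 58.2 and IV had 95.4. The replicates did not show so wide a split. Replicate 1 had 33.7 on I, 26.8 on II, 26.5 on III and 29.0 on IV. Replicate 2 had 33.0, 29.5, 29.0 and 32.7 in that order, and the V centre had 23.8 and 27.6. At sites single in each replicate, the series-level −log10 significance over the replicates' sum had a median of 1.40 on I and 1.39 on IV. It was 1.09 on II, 1.05 on III and 1.02 in the V centre, and its part in these densities was not tested. Autosomes I to IV together had 77.9 sites per Mb in the series-level list, and the ratio of the V centre to them was 0.748 (0.687 to 0.813, adjusted p = 7.76e-12, exact conditional binomial test). The ratio was 0.820 in replicate 1 (0.716 to 0.936, exact test, adjusted p = 0.00328) and 0.886 in replicate 2 (0.781 to 1.002), where the exact test did not pass (adjusted p = 0.0550). Sites found in both replicates gave 0.806 (0.689 to 0.938, adjusted p = 0.00479 in the same exact test). The quasi-Poisson model on 100-kb bins kept the series-level call with an adjusted p of 0.000134. Without adjustment, the quasi-Poisson p was 0.0309 in replicate 1, 0.162 in replicate 2 and 0.0290 in sites found in both. With II and III in place of I to IV the series-level ratio was 0.960 and did not pass the exact test (adjusted p = 0.393). The ratios to II and III were 0.894 in replicate 1 and 0.943 in replicate 2.

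Against the same stretch of the other autosomes the centre was sparse in every list. The V centre runs from 28.2% to 79.2% of the span of V, and the same relative window of I to IV had 94.7 sites per Mb in the series-level list, 36.7 in replicate 1 and 39.2 in replicate 2. The V centre stood at 0.615 of that density in the series-level list (0.563 to 0.671), 0.649 in replicate 1 (0.564 to 0.744), 0.705 in replicate 2 (0.618 to 0.801) and 0.635 in sites found in both replicates (0.540 to 0.743). All 4 tests passed, with adjusted p of 7.21e-30, 2.11e-10, 3.83e-08 and 4.41e-09 (exact conditional binomial test). The quasi-Poisson model on 100-kb bins gave the series-level ratio a larger adjusted p of 1.13e-10. Each of the 4 relative windows was denser than the V centre in each list, with no test of single windows: the window of I held 41.6 per Mb in replicate 1 and 40.9 in replicate 2, that of II had 36.8 and 40.5, that of III had 36.2 and 38.3, and that of IV had 33.0 and 37.1. In the series-level list the windows of I and IV reached 107 and 111 sites per Mb, against 83.2 on II and 73.5 on III. Without I and IV the series-level ratio was 0.742 and the replicate ratios were 0.653 and 0.699. A central window denser than its whole chromosome was not particular to V. Series-level sites per Mb were 58.3 in the V centre and 46.5 over all of V. The relative window and the whole chromosome had 107 and 90.9 on I, 83.2 and 63.0 on II, 73.5 and 58.2 on III, and 111 and 95.4 on IV. Each window was also the denser in both replicates, without a test.

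**Figure D1:**
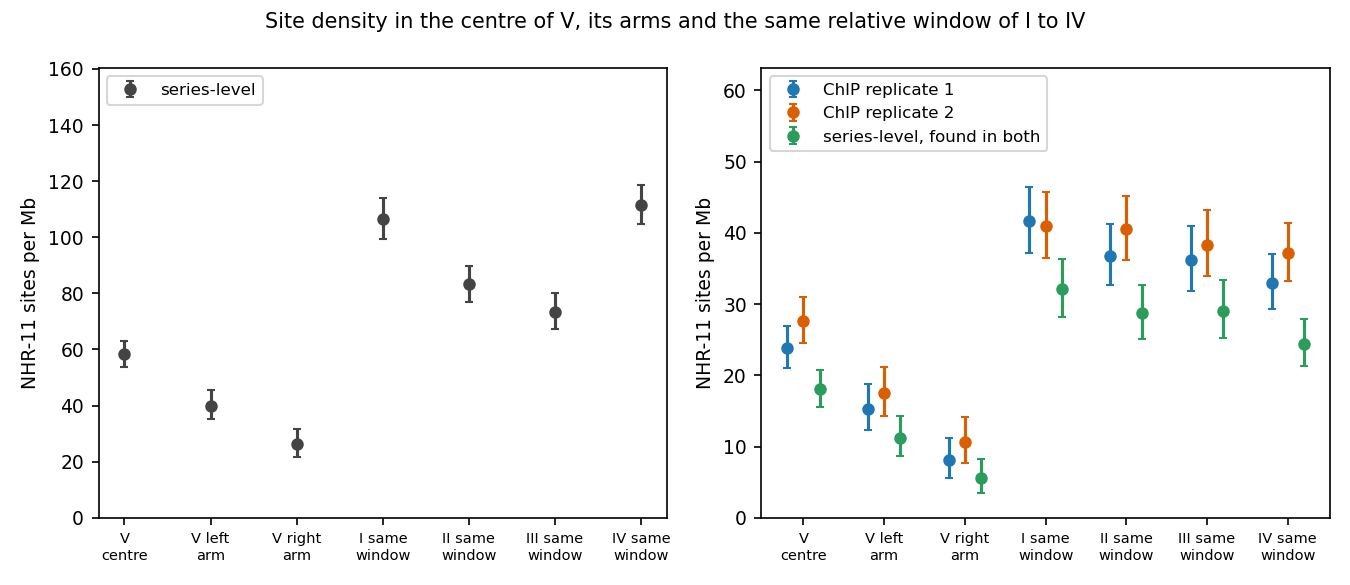
NHR-11 sites per Mb in the centre of V, its arms and the same relative window of I to IV, in the series-level list (left) and in the replicate lists and the sites found in both (right), with exact Poisson 95% intervals as bars. The V centre, at 58.3 sites per Mb in the series-level list, lies above both arms and below the windows of I to IV.

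Set against the whole genome, the window held close to its share of length in the replicates. It makes up 10.6% of the summed span of the 6 chromosomes. It held 9.72% of the sites in replicate 1 (Clopper-Pearson 95% interval 8.61 to 10.9) and 10.4% in replicate 2 (9.28 to 11.6). In the series-level list its share was 9.13% (8.46 to 9.84), below its share of the span.

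Density was uneven within the centre. It was highest near the middle, where the 1-Mb bins from 9897001 and from 10897001 held 87 and 81 sites of the series-level list, 36 and 42 of replicate 1 and 47 and 41 of replicate 2. The next bins on either side held 69 and 66 series-level sites, and the bin from 12897001 held 73. A smaller rise to 61 sites lay at the left edge, and the bins from 6897001 and 7897001 between them held 43 and 48. To the right the counts were lower before the edge of the window was reached, with 47 sites in the bin from 13897001, 36 sites in the bin from 14897001 and 10 in the last 0.653 Mb.

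The 10 full 1-Mb bins of the centre ran from 36 to 87 series-level sites, against 14 to 52 in the 9 full bins of the arms. The ranges overlap. In the series-level list the first bin of the window and the 5 from 8897001 on lay above every arm bin, and the other 4 lay within the range of the arms. In replicate 1 the central bins held 12 to 42 sites, against 4 to 22 on the arms, and in replicate 2 they held 15 to 47, against 5 to 24. Each replicate also had 6 central bins above every arm bin, but not the same 6. The bin from 13897001, with 26 sites in each replicate, was among them in both, while the first bin in replicate 2 and the bin from 11897001 in replicate 1, with 22 sites each, lay within the range of the arms.

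**Figure D2:**
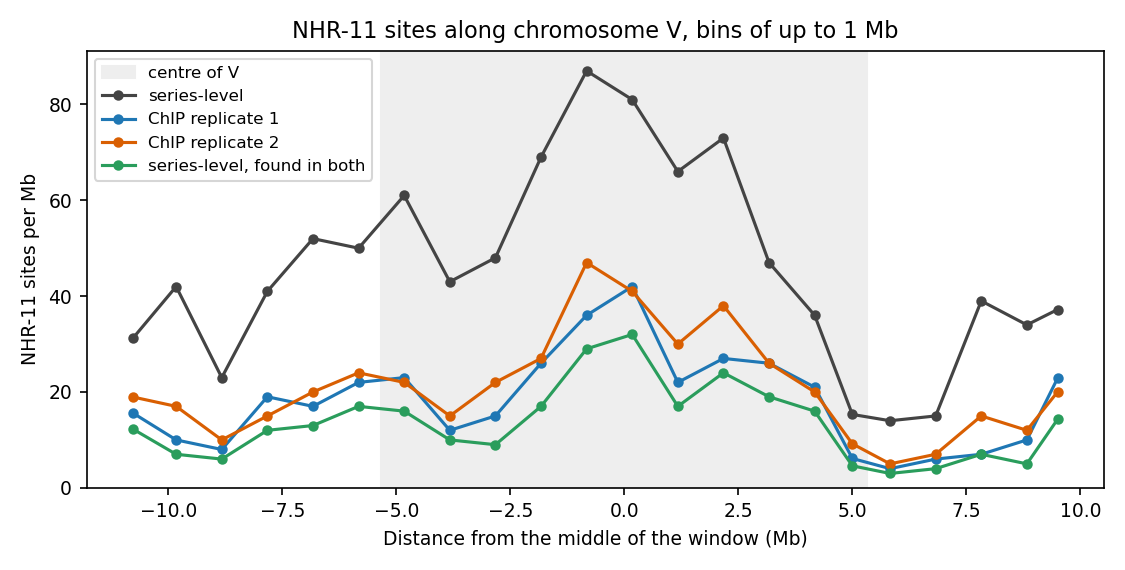
NHR-11 sites per Mb along V in bins of up to 1 Mb, by distance from the middle of the window, with the centre shaded. The counts peak near the middle, where 1 bin holds 87 series-level sites, and the right end of the window, at 10 sites in 0.653 Mb, is about as sparse as the right arm next to it.

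Of the 621 members, 192 were found in both replicates (30.9%, Clopper-Pearson 95% interval 27.3 to 34.7), where 29.3% of all series-level sites were. A further 150 (24.2%) were found in 1 replicate, 57 of them in replicate 1 and 93 in replicate 2, and 279 (44.9%) in neither. Over all series-level sites 19.5% were in 1 replicate and 51.2% in neither. The share in both was 25.6% on the arms of V and 28.7% on I to IV. Neither difference passed Fisher's exact test, at 5.28 percentage points above the arms (adjusted p = 0.650) and 2.22 points above I to IV (adjusted p = 0.686). On II and III alone the share was 34.8%, above that of the V centre. That difference of -3.91 points did not pass Fisher's exact test either (adjusted p = 0.522). Members found in both were stronger and wider, with a median −log10 significance of 12.3 and a median width of 550.5 bp. Those in 1 replicate had medians of 6.27 and 371 bp, and those in neither had 3.83 and 282 bp. These −log10 values are from the series-level list and are not independent of the replicate calls. Widths are not independent of the calls either, since a wider site meets an overlap of 1 bp more easily and wider members had higher −log10 values. How much of the width difference follows from this was not tested.

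The series-level value ordered the members closely by how many replicate lists held them. At members single in each replicate, its ratio to the replicates' summed −log10 values had a median of 1.02. The series-level value and the replicate calls are thus not independent. How far the ordering follows from this alone was not tested. All 63 members of the strongest decile, with −log10 values of 19.0 or more, were found in both replicates, as were 58 of 62 in the next decile and 44 of 62 in the one after. In decile 5, with values between 5.51 and 6.52, 3 of 62 were in both and 44 were in 1. In the weakest 4 deciles, with values up to 4.82, 0 of 248 members were in both, which allows a share of up to 1.21% by counting alone. Every list holds only sites with significance below 0.001, so the cutoffs can give this 0 by themselves.

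**Figure D3:**
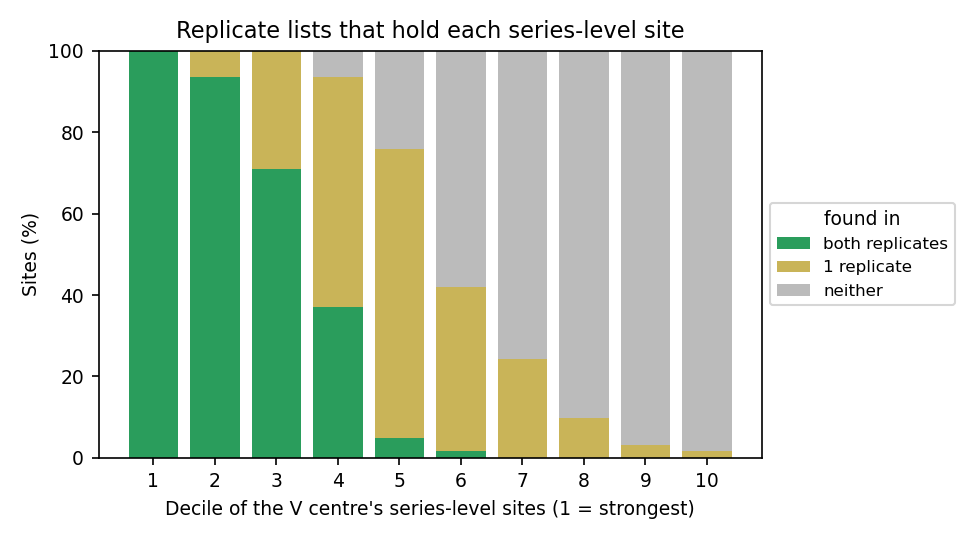
Share of the V centre's series-level sites found in both replicate lists, in 1 or in neither, by decile of series-level significance. The 63 strongest sites are all in both lists, and no site of deciles 7 to 10 is. Series-level significance and the replicate calls are not independent.

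Seen from the replicates, 194 of the 254 replicate 1 sites in the window overlapped a replicate 2 site (76.4%, 70.7 to 81.5), where 77.5% did over the whole genome. In replicate 2 it was 195 of 294 (66.3%, 60.6 to 71.7), where 71.4% did over the whole genome. All but 2 replicate 1 sites and 3 replicate 2 sites of the window overlap a series-level site. Sites with a partner had median −log10 values of 6.02 in replicate 1 and 5.84 in replicate 2, and those without one had 3.55 and 3.71. Among the sites without a partner, the highest of replicate 1 lay at 11078356 to 11079161, with a −log10 value of 7.72. In replicate 2 the highest lay at 6879476 to 6879974, with 8.01. Both overlap series-level sites, with values of 13.1 and 11.6 there.

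The 190 sites of the window that overlapped one to one had correlated values in the replicates. The 60 replicate 1 sites and 99 replicate 2 sites without a partner do not enter. Single sites could still differ, with 8.36 in replicate 1 and 18.0 in replicate 2 at 7196499, and 13.3 and 6.40 at 12478925. Their −log10 values had a Spearman's rho of 0.79 and a Pearson's r of 0.94, across sites that share the same 2 libraries and are not replicates of each other. Replicate 1 had the higher value at 95 of the 190 sites. The midpoints lay a median of 35.2 bp apart, and at 90% of the sites within 115 bp. Widths had a rho of 0.82. On the arms of V the rho of the −log10 values was 0.76 over 89 sites, and on I to IV it was 0.79 over 1357.

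**Figure D4:**
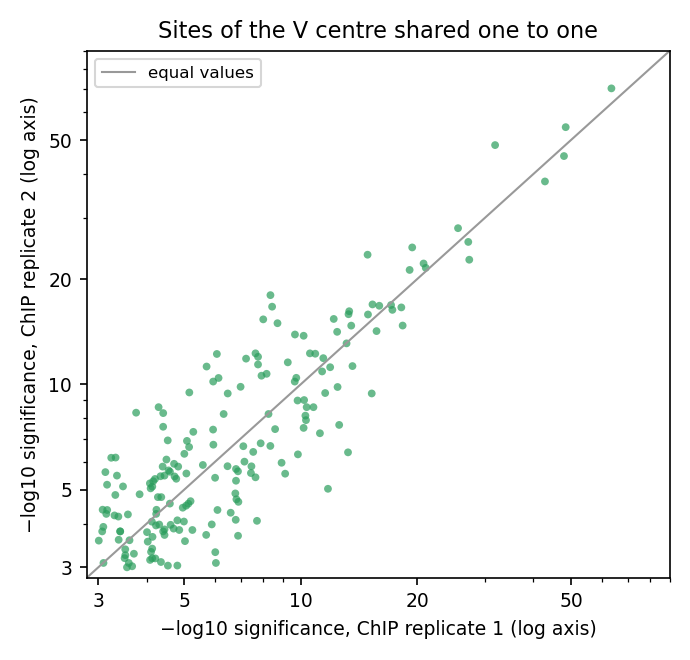
−log10 significance in replicate 1 (x) and replicate 2 (y), both on log axes, for the 190 V centre sites that overlap one to one, with the line of equal values. Points scatter about the line, and the highest stands at 63.6 and 70.2. The left piece of the strongest site lies off the line, at 31.8 and 48.4.

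At the head of the members stood the site from 6220819 to 6230074. It spans 9256 bp, its −log10 value was 179, and it ranked 4 among all series-level sites. The replicates did not call it as 1 site. Replicate 1 held pieces of 869, 3589 and 3596 bp, with −log10 values of 4.24, 31.8 and 42.8 from left to right. Replicate 2 held pieces of 3734 and 3628 bp, with values of 48.4 and 38.1. The main pair of pieces, starting at 6221922 and 6226465 in replicate 1 and at 6222098 and 6226385 in replicate 2, was thus present in both. The left piece was the stronger in replicate 2 and the right piece in replicate 1. A gap of under 1 kb separates the pieces in each replicate, and the series-level list runs across it.

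The next 3 members were single sites in each list. The site from 13869462 to 13869976, 515 bp wide, had 63.6 (replicate 1), 70.2 (replicate 2) and 102 (series-level) as its −log10 values, and it was the highest of the window in both replicates. The site at 9342940 to 9344794 had 48.5, 54.4 and 100.3 in the same order, and its series-level width of 1855 bp compares with 1815 and 1811 bp in the replicates. The site at 9546057 to 9547882 had 47.96, 45.0 and 74.0. Its series-level width was 1826 bp, but the replicates gave 836 and 515 bp, so its full width did not repeat.

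Below these the values dropped. The site at 13907732 to 13909941 reached 63.3 at the series level, with 26.8 in replicate 1 and 35.2 at the stronger of its 2 pieces in replicate 2. The site at 9730741 to 9732218 had 25.5, 27.99 and 54.9. Only these 6 members reached a series-level value of 50. The site at 14199914 to 14200524 followed with 27.1, 25.6 and 47.0, and the site at 10965457 to 10965919 with 27.3, 22.7 and 46.6. Ranks 9 and 10 were at 9984760 to 9985802, with 20.8, 22.2 and 44.6, and at 10466391 to 10467525, with 21.1, 21.6 and 41.3.

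The 20 strongest members had series-level values down to 30.3, and all were in both replicates. The series-level ranking is not independent of the replicate calls, so this count is not separate support for these members. Their values were 13.4 to 63.6 in replicate 1 and 14.2 to 70.2 in replicate 2. Replicate 1 was higher at 8 of them and replicate 2 at 12. Widths ran from 405 bp, at 10897183 to 10897587, to 9256 bp, with a median of 1089 bp. Of the 20, 18 were a single site in each replicate. A stretch of 2.1 Mb from 9 to 11.1 Mb held 12 of the 20 and 174 of the 621 members. It was singled out after the values were seen, and 3 of the 20 lay to its left and 5 to its right.

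**Figure D5:**
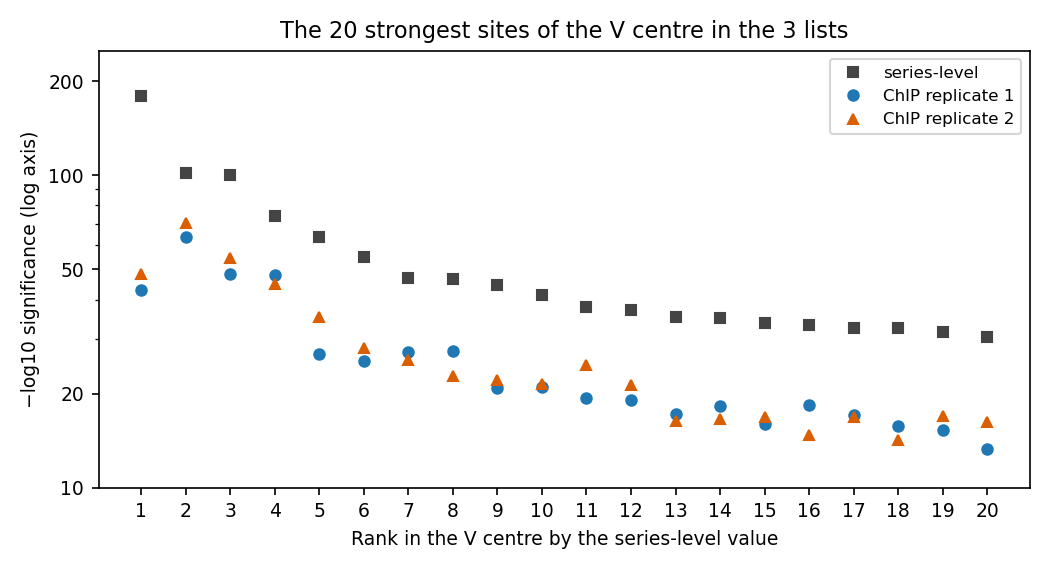
−log10 significance (log axis) of the 20 strongest V centre sites in the series-level list and in each replicate, in order of the series-level value. Where a replicate split a site, its best piece is shown. The site ranked 2, at 63.6 and 70.2, is the highest in both replicates.

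The share of strong sites among the members did not differ from that elsewhere past the test's threshold, which does not show that the shares are equal. In the series-level list 54 of 621 members (8.70%, 6.60 to 11.2) were among the upper 10% by significance, the 680 sites that make up 10.0% of all. The share was 6.55% on the arms of V and 10.6% on I to IV, and neither difference passed Fisher's exact test (adjusted p = 0.686 and 0.650). Among sites found in both replicates the share was 28.1% in the V centre, against 25.6% on the arms and 37.0% on I to IV, and the difference of -8.87 points from I to IV did not pass Fisher's exact test either (adjusted p = 0.290). In replicate 1 the shares were 9.06% in the centre, 8.00% on the arms and 10.3% on I to IV. In replicate 2 they were 9.86%, 5.37% and 10.4%, and no difference passed (Fisher's exact test, adjusted p of 0.650 or more). With the upper 25% in place of 10%, the V centre fell short of I to IV by 6.13 percentage points, which passed Fisher's exact test (adjusted p = 0.0173). The share in the upper 25% was 20.8% in the V centre, against 26.9% on I to IV and 26.0% on II and III. In replicate 1 it was 23.6% in the V centre and 25.3% on I to IV, and in replicate 2 it was 22.4% in the V centre and 25.8% on I to IV, differences that were not tested. The series-level scale differed between these chromosomes. Divided by the replicates' summed −log10 values, the series-level value of one-to-one sites gave a median ratio of 1.02 in the V centre, against 1.39 in the relative window of I, 1.39 on IV, 1.10 on II and 1.05 on III. The part of this scale in the difference from I to IV was not tested. Against II and III the difference was -0.720 percentage points at the upper 10%. At the upper 25% the V centre, at 20.8%, stood below II and III too, at 26.0%, without a test. Among sites found in both replicates, 27.0% on II and III were in the upper 10%, against 28.1% in the V centre.

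The median −log10 value of the members was 5.51 in the series-level list (quartiles 3.91 and 9.16), against 5.13 on the arms and 6.17 on I to IV. It was 4.80 in replicate 1, against 4.86 on the arms and 5.22 on I to IV, and 4.76 in replicate 2, against 4.99 and 5.28. These medians were not tested.

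Members had a median width of 375 bp in the series-level list (quartiles 248 and 553), 409 bp in replicate 1 and 411.5 bp in replicate 2. The arms had 353, 371 and 404 bp in the same lists, and I to IV had 338, 386.5 and 387 bp. Of the 621, 45 (7.25%, 5.33 to 9.58) were at least 1 kb wide, and 44 were wider than 1 kb, where 6.40% of all series-level sites were at least 1 kb. The arms had 5.70% and I to IV had 5.90% such sites, and neither difference passed Fisher's exact test (adjusted p = 0.781 and 0.650). At 500 bp the V centre was above I to IV by 6.89 percentage points and Fisher's exact test passed (adjusted p = 0.00514), in the series-level list alone. In replicate 1 the shares were 31.1% in the V centre and 31.0% on I to IV, and in replicate 2 they were 33.0% and 31.2%, without a test. In the series-level list II and III, with a median width of 375 bp, had 30.3% of sites of at least 500 bp, against 31.6% in the V centre.

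Of the 45 wide members, 33 were in both replicates (73.3%), 6 in 1 and 6 in neither, where 74.7% of all series-level sites at least 1 kb wide were in both. After the strongest site, the widest were at 10713544 to 10717651 (4108 bp), at 14685570 to 14689115 (3546 bp), at 7726901 to 7730012 (3112 bp) and at 10721435 to 10724288 (2854 bp). Their series-level −log10 values were 29.2, 29.96, 30.3 and 25.7. Replicates 1 and 2 gave less at 3 of these: the site at 10713544 was 1823 bp wide in replicate 1 and 1077 bp at its stronger piece in replicate 2, the site at 14685570 was 1067 and 945 bp wide there, and the site at 7726901 was 1091 and 1191 bp wide. The site at 10721435 was 2840 bp wide in replicate 2 and in 2 pieces in replicate 1. At the other end, 19 members were under 50 bp, of which 17 were in neither replicate, 2 in 1 and 0 in both. In all, 7 members were split into more than 1 site by a replicate. Wider members had higher −log10 values, with Spearman's rho of 0.58 across the 621 sites, 0.60 in replicate 1 and 0.49 in replicate 2.

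Many members lay in short runs. Joining sites at most 5 kb apart gave 60 clusters of at least 3 sites, which held 237 members (38.2%). In replicate 1 there were 16 such clusters with 21.7% of its sites, and in replicate 2 there were 18 with 21.4%. The share was 29.2% on the left arm, 20.0% on the right arm and 54.4% in the relative windows of I to IV, an order that follows site density. The cluster with most sites, 10 over 20.0 kb, ran from 10855371 to 10875418. Of these 10, 3 were in both replicates, with series-level −log10 values of 18.1, 23.5 and 20.2, 2 were in replicate 2 alone and 5, with values of 5.01 or below, were in neither.

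A second cluster repeated almost whole. It ran from 10711526 to 10731396, 19.9 kb, and held 7 series-level sites between 476 and 4108 bp wide, 6 of them in both replicates. Their −log10 values from left to right were 11.9, 29.2, 35.0, 25.7, 21.7 and 28.1, with 6.10, 13.1, 18.2, 10.1, 10.6 and 12.2 in replicate 1 and 4.38, 13.1, 16.6, 11.6, 12.3 and 15.4 in replicate 2. The remaining site, at 10724516 to 10725825, had 4.71 and was in neither. It sits between stronger neighbours. Sites of both replicates lay near each end of the tract, but each replicate left stretches between its sites uncovered. The cluster from 10031226 to 10046917 also held 7 sites, but with values of at most 9.30, and 3 of them were in both replicates.

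Among 106 windows of 100 kb, the fullest in the series-level list were those from 11797001 and from 12497001, with 19 and 18 sites. The window from 8997001 followed with 15, as many as those from 6197001 and 10797001. Replicates 1 and 2 held 7 and 4 sites in the first, 3 and 6 in the second and 8 and 8 in the window from 8997001, so the order of the windows differed between lists. Only 4 of the 106 windows (3.77%, 1.04 to 9.38) were empty in the series-level list, against 17 in replicate 1 and 18 in replicate 2. Sites found in both replicates were missing from 26 windows (24.5%).

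The distance between neighbouring members had a median of 8.41 kb in the series-level list, against 10.2 kb on the left arm, 20.7 kb on the right arm and 4.42 kb in the relative windows of I to IV. In all, 92 of the 620 distances (14.8%) were 1 kb or less. The longest stretches without a series-level site ran from 14423556 to 14576750 (153 kb), from 16390929 to 16537930 (147 kb) and from 16172140 to 16317658 (146 kb), and 2 of these 3 lie near the right edge. No replicate site lay inside them either. The longest stretch without a site found in both replicates, from 16000780 to 16352016 (351 kb), overlaps the last of these. It held 4 series-level sites and 2 replicate 2 sites.

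The strongest member that neither replicate held was at 6768549 to 6768895. Its −log10 value was 7.65, which ranked it 196 among the 621. The strongest found in exactly 1 was at 9366315 to 9366978, with a series-level value of 14.7 and 5.44 in replicate 1. The weakest found in both was at 11535294 to 11535921, with a series-level value of 5.12 and with 3.09 in each replicate. At the left edge, the first site inside the window was at 5917698 to 5918039, with 4.79, and the last outside at 5858378 to 5858711, with 5.11. At the right edge, the last inside was at 16537931 to 16538356, with 6.77, and the first outside at 16592022 to 16594878, with 30.9. That outer site is 2857 bp wide, is found in both replicates and would rank among the 20 strongest had the window reached it.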

How the data were processed

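The authors deposited 3 site lists, 1 per ChIP replicate and 1 for the series. Per the file headers the build is WormBase WS220, and per the source column the caller was PeakSeq. The sources used here do not give its version or settings, the aligner, the role of the inputs or how the series-level list was made. The 1 unnamed number deposited per site was taken for a p-value or q-value, since all lie above 0 and below 0.001. It was turned into −log10 and used to rank sites within a list.

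Sites were assigned by midpoint. A chromosome's span runs from its first base to the end of its last site. Densities were compared by exact conditional binomial tests (12, adjusted together) and shares by Fisher's exact test (18, adjusted together), all two-sided, Benjamini-Hochberg, threshold 0.05, in Python 3.11.15 with scipy 1.17.1 and statsmodels 0.14.6. The p of each alternative setting replaced the matching p among the 12 or 18 before adjustment. The number of alternatives was not corrected for. Functions were tested on simulated data. Sites are not replicates, and the 2 replicate lists show the spread.

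Named sites are the 20 strongest, the widest, the strongest in neither, in 1 or unpaired, the clusters, windows and gaps at the extremes, and those at the edges. The window, comparisons and lists were chosen with earlier results of these data known. Alternatives with II and III in place of I to IV were added after seeing the data. No sequence or gene annotation in WS220 was used here.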

Additional observations from a re-analysis of the deposited data

How the results depend on the processing

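The density of the V centre over its arms stayed past the threshold in all 8 alternatives run (ratios 1.67 to 2.05), as did that against the same relative window of I to IV in 9 (0.532 to 0.742). Leaving out a replicate here means using the other replicate's own list, and no series-level list was remade. The densities from those lists and from sites found in both replicates repeat results given above and are not further checks. Against whole autosomes I to IV, the ratio was 0.820 without replicate 2 and 0.886 without replicate 1, where it missed the threshold, and 0.960 against II and III alone, where it missed it too. The other 7 alternatives for it passed. Of the shares, none of which passed in the series-level list, 2 passed under another cutoff: the upper 25% by significance against I to IV (-6.13 percentage points) and 500 bp against I to IV (6.89 points), where the shares were 31.1% in the V centre and 31.0% on I to IV in replicate 1, and 33.0% and 31.2% in replicate 2. The share of wide sites against the arms was 0.268 points without replicate 2 and turned to -2.60 without replicate 1. Against I to IV it was 1.33 and -0.450 in these settings and -1.32 against II and III. The share found in both turned to -3.91 against II and III. The causes were not tested. Clusters held 18.4% of members with a gap of 2 kb and 57.5% with 10 kb, by construction, and 21.4% to 21.7% in 1 replicate list alone. Empty windows made up 15.0% at 50 kb and 24.5% with sites found in both replicates. The rank correlation was 0.71 in the upper 50% of the lists, a narrower range, and 0.81 with a reciprocal overlap of 50%. No paired analysis was possible because inputs carry no site list here. Read depth is unknown, so a site missing from a list was not detected there and is not shown to be absent.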

Other observations

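The right border of the window falls in a sparse stretch. The last 0.653 Mb inside it held 10 series-level sites and the next 2 bins of 1 Mb outside held 14 and 15, while the bins beyond held 39 and 34. In replicate 1 these bins held 4, 4, 6, 7 and 10 sites, and in replicate 2 they held 6, 5, 7, 15 and 12. At the left border the bins just inside and just outside held 61 and 50 series-level sites, 23 and 22 in replicate 1 and 22 and 24 in replicate 2. The replicates thus differed across the left border by 1 or 2 sites, in opposite directions.

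The −log10 values of adjacent series-level sites had a Spearman's rho of 0.05 over 620 pairs, given as a description. The member at 13089584 to 13091563 was counted as found in both replicates although its pieces barely met: replicate 1 had 13090698 to 13090848, and replicate 2 had 13089584 to 13090126 and 13090355 to 13090699.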
